A study of Mus musculus with 50 samples.

Results

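The cells described here are cultured mouse oligodendrocytes, left untreated and followed over a day of their differentiation, from 24 to 48 h as labelled: 5 libraries at 48 h and 5 at 24 h. These 10 libraries were taken by the treatment and hour in their labels from a series of 50 bulk RNA-seq libraries in 20 groups. At each hour 3 libraries are Nrf2 -/-, that is, from mice that lack Nfe2l2, the gene for the antioxidant regulator NRF2, and 2 are wild type. The labels describe precursors that were taken by immunopanning from the cortex of C57BL/6 pups 6 days old, expanded through 2 passages in proliferation medium and allowed to differentiate for 12 to 14 h, so the labelled hours count from the end of that period, the time at which other cultures received their treatment. Untreated cells at 8 h (5 libraries) and cells given the inflammatory cytokine IFN-γ at 200 U/ml for 48 h or 24 h (5 libraries each, again 3 Nrf2 -/- and 2 wild type) were used for comparison, and untreated cells at 1 h appear in the plot of levels by hour. The labels carry a tissue tag of whole brain, and the design text speaks of 1 mutant replicate more than the 3 found. They do not say whether libraries of a group come from separate cultures, so the p-values reflect how far these libraries scatter. That scatter could be technical in part or, among wild-type libraries, alone. Nrf2 -/- libraries of each hour differed in the sex-linked transcripts Xist and Ddx3y, so they were not all repeats of the same cells. The defining oligodendrocyte markers were present in all 10 libraries, with Olig2 at 247 to 374 CPM, Sox10 at 752 to 946 CPM and Mbp at 1684 to 7447 CPM.

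Oligodendrocytes wrap axons of the central nervous system in myelin, a stack of membrane rich in cholesterol, galactolipids and a small set of proteins. A precursor that leaves the cell cycle first switches on genes of the newly formed, premyelinating cell and then those of compact myelin, under the transcription factors OLIG2, SOX10 and MYRF. Cholesterol for the membrane is mostly made in the cell itself, since the blood-brain barrier keeps out the cholesterol of the blood, and the membrane proteins pass through the endoplasmic reticulum (ER) on their way.

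Each of the 10 libraries held 34385467 to 37321918 counted reads. The hours lay apart on the first principal component of log2 CPM (CPM are counts scaled to a common library size, by TMM), which carried 67.7% of the variance and ran from 41.8 to 57.2 at 48 h and from −52.2 to −41.7 at 24 h. Between libraries of the same hour the correlation across genes was 0.987 to 0.994, and between hours 0.954 to 0.971. Nfe2l2 was at 0.467 to 0.716 CPM in Nrf2 -/- libraries and at 63.3 and 70.1 CPM in wild-type libraries at 48 h, and at 0.323 to 0.667 CPM and 27.8 and 28.4 CPM in the same order at 24 h. Xist was high in some libraries of both hours but, at 48 h and at 24 h alike, only in Nrf2 -/- ones, 2 of 3 each, and with Xist as a term 7973 genes changed between the hours. Wild-type 24 h replicate 2 stood apart on the second component (−42.6, against 5.9 to 15.1 in the other 24 h libraries). Nrf2 -/- untreated 24 h replicate 2 held IFN-γ target transcripts, with Gbp2, chosen after its values were seen, at 40.6 CPM where the other 24 h libraries had 0 to 0.161 CPM. Without both of these libraries the count of changed genes was 7248, 3466 higher and 3782 lower. Among the genes run this way, calls below that were lost without both or without a single library are given as such. The calls of Itpr2, Myrf, mt-Nd2 and Nr1h2, given below for single libraries, were also lost without both, with log2 folds of −0.26, 0.59, 1.03 and 0.08.

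Over this day 8159 of 14858 tested genes changed (54.9%), 3954 of them higher at 48 h (26.6%) and 4205 lower (28.3%). A gene is called changed here at a Benjamini-Hochberg (BH) adjusted p below 0.05 in edgeR's quasi-likelihood test over all tested genes, with genotype as a covariate. Large changes were mostly increases. By 2-fold or more, 1391 genes were higher (9.36%) and 431 lower (2.9%). The 5 libraries of one hour all lay above the 5 of the other in 6323 genes (42.6%). Folds below are log2 folds of 48 h over 24 h with their standard error (SE), and where 5 CPM values of an hour are listed, the 3 Nrf2 -/- libraries come first and the 2 wild-type libraries after them. The genes of a list given as highest or lowest are so among its called members with a mean of at least 5 CPM in the higher hour.

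Genes in this paragraph were taken from called genes reaching 5 CPM whose hours do not overlap. Their lack of overlap follows from that choice. The largest increases among them were in transcripts that had been close to absent at 24 h. Il12rb1, a subunit of the interleukin-12 receptor, had a log2 fold of 6.37 ± 0.33, and Cldn19, a claudin of tight junctions, one of 6.08 ± 0.25. Further increases were in the calcium channel Cacna1i (5.75 ± 0.27), the tubulin Tuba4a (5.69 ± 0.31), the melanin pathway enzyme Dct (5.61 ± 0.09), the carbonic anhydrase Car2 (5.60 ± 0.10) and Arc, a regulator of synapses in neurons (5.53 ± 0.15). Ceacam2, Mal, Megf6, the incretin receptor Gipr and the transcriptional repressor Bhlhe41 completed the 12 highest, at 5.13 to 5.52. Dct held 101, 98.8, 102, 136 and 119 CPM at 48 h, against 1.61, 2.52, 1.97, 2.73 and 2.53 CPM at 24 h. Arc held 53.2, 51.4, 44.3, 55.7 and 56.8 CPM at 48 h, against 0.581, 0.986, 1.15, 1.82 and 1.1 CPM at 24 h. For both, every 48 h library was many times above every 24 h library. At the other end, the calcium-binding proteins S100a6 (−2.89 ± 0.09) and S100a3 (−2.47 ± 0.13), the secreted BMP antagonist Vwc2 (−2.39 ± 0.07), the choline transporter Slc5a7 (−2.35 ± 0.13) and the growth factor Bmp4 (−2.31 ± 0.09) fell the most. Cbln2, Gpc3, the neurotrophic factor Gdnf, Tmem45a, Snx22, the lysophosphatidic acid receptor Lpar4 and the GABA-B receptor subunit Gabbr2 followed, at −2.29 to −2.14. S100a6 held 2.83, 2.8, 3.04, 2.89 and 2.24 CPM at 48 h, against 20.4, 19.8, 22.1, 20.7 and 19.2 CPM at 24 h. Adjusted p-values of these 24 genes ran from 1.63e-15 (Mal) to 2.22e-08 (Gabbr2).

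Genes for the proteins of the myelin sheath moved in both directions. Mbp, which holds the cytoplasmic faces of compact myelin together, Mobp, Mal and Ermn increased many-fold, while Opalin and Bcas1 fell. Of the 34 tested members of this list, 20 rose, 7 fell and 7 did not pass, with 13 higher and 2 lower by 2-fold or more. The 7 that fell became 4 without wild-type 48 h replicate 2, Nrf2 -/- 48 h replicate 3 or Nrf2 -/- 24 h replicate 3, and under 2 other scalings of the libraries. Their median log2 fold was 0.55, against 0.00 over all tested genes. Summed over the list, a 48 h library held 49268, 49243, 45911, 49474 and 48517 CPM, against 30709, 32168, 32044, 35208 and 31954 CPM at 24 h, without overlap.

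Mobp held 992, 953, 942, 1072 and 1194 CPM at 48 h, against 66, 79.4, 71.2, 103 and 92.1 CPM at 24 h, a log2 fold of 3.66 ± 0.07 (adjusted p = 2.13e-14). Mbp held 6778, 6601, 6711, 7257 and 7447 CPM at 48 h, against 1684, 1940.5, 1878, 2397 and 1926 CPM at 24 h (1.83 ± 0.07, adjusted p = 1.75e-11). Mal, a proteolipid of myelin membrane rafts, had 74.4, 62, 70.2, 91.8 and 96 CPM at 48 h, against 1.71, 1.83, 1.56, 2.35 and 2.16 CPM at 24 h (5.36 ± 0.07, adjusted p = 1.63e-15). In each case the lowest 48 h library was above the highest 24 h library. Ermn, the cytoskeletal protein ermin of the outer myelin turns, had 48.1, 50.3, 50.1, 90 and 84.8 CPM at 48 h, against 0.968, 1.77, 1.44, 2.79 and 3.29 CPM at 24 h (5.0 ± 0.11, adjusted p = 1.26e-13). Both wild-type libraries lay above the 3 Nrf2 -/- libraries at both hours for this gene. Tmem125 (4.40 ± 0.14) and the adhesion protein gene Mag (1.17 ± 0.07) also increased.

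Cnp, an enzyme of non-compact myelin, averaged 3897 ± 266 CPM at 48 h, against 4029 ± 214 CPM at 24 h (SD, n = 5 each; −0.05 ± 0.06, adjusted p = 0.538). Mog held 53.9, 53.5, 46.2, 49.9 and 43.6 CPM at 48 h, against 53.8, 52.2, 59.7, 66.8 and 52.9 CPM at 24 h (−0.21 ± 0.08, adjusted p = 0.0441). The hours overlap for Mog, which encodes a glycoprotein of the outermost myelin surface. Its call was lost without any one of 5 libraries, with adjusted p-values of 0.094 (wild-type 48 h replicate 1), 0.124 (wild-type 24 h replicate 1), 0.128 (Nrf2 -/- 48 h replicate 3), 0.134 (Nrf2 -/- 24 h replicate 3) and 0.152 (wild-type 48 h replicate 2), and under both other scalings (0.0517 and 0.0618). Opalin, a transmembrane glycoprotein of the oligodendrocyte surface, had 12.3, 12.7, 12.9, 11.2 and 9.92 CPM at 48 h, against 42.3, 43.6, 44.8, 42 and 47.8 CPM at 24 h (−1.90 ± 0.07, adjusted p = 2.57e-11). Bcas1, a marker of premyelinating and early myelinating cells, had 1976, 2157, 1997, 1985 and 1558 CPM at 48 h, against 4127, 4160.2, 4067, 4039 and 3985 CPM at 24 h (−1.08 ± 0.07). All 5 libraries of 48 h lay below all 5 of 24 h for both Opalin and Bcas1, and the myelin glycoprotein gene Omg fell too (−0.78 ± 0.04).

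**Figure D1:**
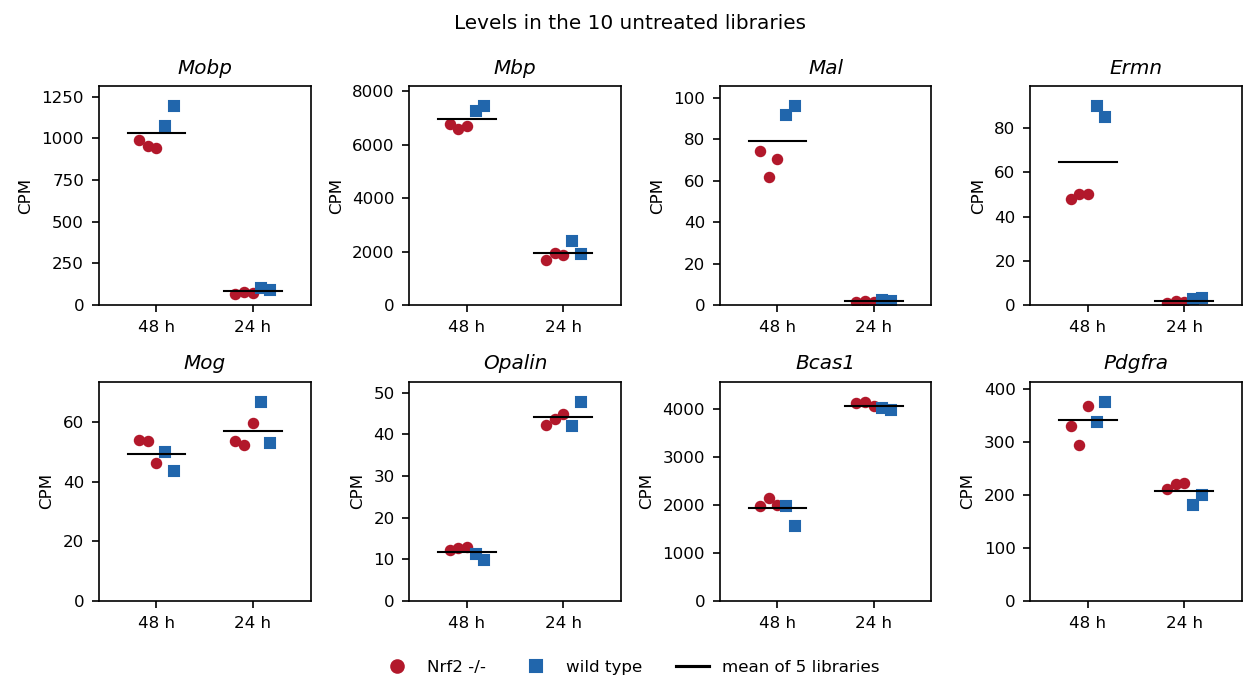
Level in CPM (vertical axis of each panel, starting at 0) of 8 genes in the 5 untreated libraries at 48 h and the 5 at 24 h; circles are Nrf2 -/- libraries, squares wild-type libraries and lines the mean of 5. Mobp, Mbp, Mal, Ermn and Pdgfra are higher in every 48 h library than in any 24 h library, Opalin and Bcas1 are lower in every one, and for Mog the hours overlap.

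Most markers of the mature cell rose. Of 43 listed genes 39 passed the filter on low counts, and of these 32 rose, 4 fell and 3 did not pass, 23 of the higher ones by 2-fold or more. Their median log2 fold was 2.00. Car2 led, with 30.6, 27.7, 24.9, 36.7 and 38.5 CPM at 48 h, against 0.613, 0.551, 0.559, 0.882 and 0.632 CPM at 24 h (5.60 ± 0.10, adjusted p = 2.13e-14), followed by Mal and by the stress-response gene Ndrg1 (3.86 ± 0.22 for Ndrg1). Opalin, the tyrosine breakdown enzyme Fah (−0.78 ± 0.11) and the kinesin Kif5a (−0.28 ± 0.06) were among the 4 that fell, and the fourth was Mog, whose call rested on single libraries as said. In sum the list held 9014, 9076, 7844, 8668 and 9365 CPM at 48 h, against 3654, 3817, 3321, 3915 and 3695 CPM at 24 h.

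Among markers of committed and newly formed oligodendrocytes, more fell than rose. Of 26 tested, 7 rose, 12 fell and 7 did not pass, with a median of −0.31. Besides Bmp4, the sialidase Neu4 (−2.05 ± 0.09) and Lims2 (−1.69 ± 0.07) fell the most. Gpr17, a receptor that marks the premyelinating stage, averaged 812 ± 60.7 CPM at 48 h, against 1469 ± 78.4 CPM at 24 h (−0.86 ± 0.05). Enpp6, a choline phosphodiesterase of newly formed cells, averaged 1008 ± 49.4 CPM at 48 h, against 1562 ± 30.3 CPM at 24 h (−0.63 ± 0.05), while the calcium store channel Itpr2 was at −0.32 ± 0.11 (adjusted p = 0.0244, and 0.0524 to 0.0813 without wild-type 24 h replicate 1, either wild-type 48 h replicate or Nrf2 -/- 48 h replicate 3). The calcium-sensing receptor Casr (3.37 ± 0.18), Prom1 (2.72 ± 0.22) and the hyaluronidase Cemip2 (1.85 ± 0.13) rose, and Tcf7l2 was at −0.02 ± 0.30 with an adjusted p of 0.96.

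Of 24 tested precursor markers (26 listed), 7 rose, 8 fell and 9 did not pass, with a median of 0.04. These shares were near those of all tested genes, of which 26.6% rose and 28.3% fell. The tested members summed to 2980.3 to 3355 CPM at 48 h, against 3419 to 3912 CPM at 24 h, a fall without overlap. This fall rests largely on the most abundant member, Lhfpl3, which averaged 544 CPM at 48 h, against 944 CPM at 24 h. The next most abundant, Sema5a, averaged 557 CPM at 48 h, against 432 CPM at 24 h. Pdgfra, the receptor through which PDGF keeps precursors dividing, had 331, 294, 367, 337 and 376 CPM at 48 h, against 211, 221, 222, 181 and 199.7 CPM at 24 h (0.72 ± 0.07, adjusted p = 1.27e-06). All 5 libraries at 48 h were above all 5 at 24 h. Cspg4, which encodes the NG2 proteoglycan, was at 0.41 ± 0.09, Xylt1 at 0.66 ± 0.13 and Fabp7 at 0.55 ± 0.13, all called, whereas Neu4, the transcription factor Sox6 (−1.13 ± 0.07) and Gpr37l1 (−0.85 ± 0.05) fell. In bulk libraries, a change in the share of cells of a kind and a change in the RNA per cell cannot be told apart.

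Among transcription factors of the lineage, 14 of 29 rose and 7 fell (median 0.14), and 9 rose without both 24 h libraries that stood apart. Olig2 held 264, 261, 259, 247 and 255 CPM at 48 h, against 374, 349.5, 374, 336 and 346 CPM at 24 h (−0.47 ± 0.04), with no overlap, while its partner Olig1 was slightly higher (0.15 ± 0.04), or at 0.10 with an adjusted p of 0.127 without both of those libraries. Sox10 was at −0.11 ± 0.05 with an adjusted p of 0.0923, and Myrf, the activator of myelin genes, was higher at 0.60 ± 0.21 (adjusted p = 0.0412) with overlapping hours, at 520.1, 510.4, 475, 392 and 817 CPM at 48 h, against 456, 342, 292, 322 and 366 CPM at 24 h. The call for Myrf was lost without any one of 7 libraries, all but wild-type 48 h replicates 1 and 2 and Nrf2 -/- 24 h replicate 1, with adjusted p-values of 0.0551 to 0.103. Nkx2-2 (−1.09 ± 0.22) and Sox8 (−0.95 ± 0.10) fell, and Zfp536 (2.36 ± 0.08), Sox9 (1.55 ± 0.23), a factor of glial precursors and astrocytes, and Pou3f1 (1.45 ± 0.08) rose. In the list of inhibitors of differentiation, which holds Notch, BMP and Wnt pathway genes, 16 of 31 were higher and 9 lower (median 0.22). The Id genes, targets of BMP signals, were among those that rose, with Id4 at 1.82 ± 0.09, Id1 at 1.36 ± 0.13 and Id2 at 1.04 ± 0.11, while their ligand gene Bmp4 and the Notch ligand Dll3 (−1.38 ± 0.15) fell.

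**Figure D2:**
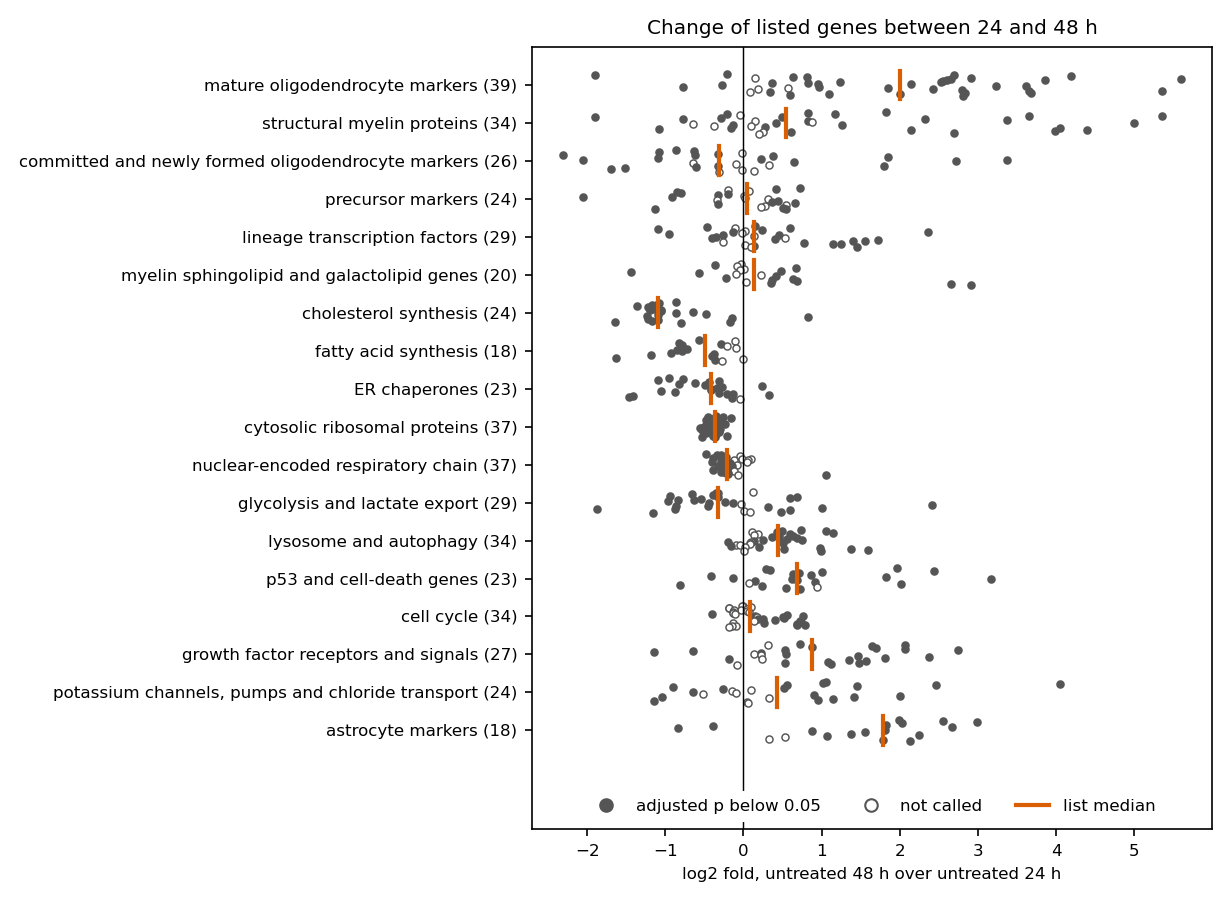
Log2 fold of untreated 48 h over untreated 24 h (horizontal axis) for each tested member of the gene lists on the vertical axis, with the number tested in parentheses; filled points are called at an adjusted p below 0.05, open points are not, and orange bars are list medians. The median is 2.00 for mature markers, −1.09 for cholesterol synthesis and 1.79 for astrocyte markers.

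Genes for cholesterol synthesis fell almost without exception. Of 24 tested members (25 listed), 23 fell and 1 rose, 16 of those that fell by 2-fold or more, with a median log2 fold of −1.09. Summed over the list, a library held 15098, 15017, 12534, 12143 and 10838 CPM at 48 h, against 26741, 24086, 25942, 24683 and 24354 CPM at 24 h. Within 48 h, the wild-type libraries and Nrf2 -/- replicate 3 were the lower ones. The sterol carrier Stard4 (−1.65 ± 0.12), farnesyl diphosphate synthase Fdps (−1.36 ± 0.10) and the methylsterol oxidase Msmo1 (−1.23 ± 0.09) fell the most.

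Hmgcs1, the HMG-CoA synthase at the start of the pathway, had 4505, 4616, 3825, 3693 and 3149 CPM at 48 h, against 8486, 7999.9, 8701, 8247 and 8208 CPM at 24 h (−1.08 ± 0.08, adjusted p = 3.66e-08). The highest 48 h library was below the lowest 24 h library. Srebf2, which encodes the transcription factor SREBP2 that activates this pathway when sterols are low, was nearly level at −0.17 ± 0.06 (adjusted p = 0.03). Hsd17b7 was the member that rose (0.83 ± 0.06), and Ebp was at −0.15 ± 0.05. Hmgcs1, Srebf2 and Ebp were chosen after their values were seen, Hmgcs1 because its promoter carries the motif described next.

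Known sterol response elements of this pathway resemble TCACNCCAC, and factors that bind CCAAT boxes act beside them. Both motifs were searched on both strands in the 250 bases before the transcription start in RefSeq's annotation of GRCm38.p6. Promoters were found for 17 of the 24 tested members. TCACNCCAC was in 1 of these 17 (5.88%), against 1.22% of all 27025 gene symbols with a promoter, and CCAAT was in 16 of 17 (94.1%), against 37.5%. Hsd17b7, the member that rose, is among the 16. The promoter with both is that of Hmgcs1, shown because it carries the sterol element, chr13:119690101-119690350 on the forward strand. It is written 5′ to 3′, with the fixed bases of the TCACNCCAC match, 137 to 129 bases before the start, and the 3 CCAAT boxes, all read on the reverse strand as ATTGG, in capitals. A match describes the letters and not a bound site.
Hmgcs1: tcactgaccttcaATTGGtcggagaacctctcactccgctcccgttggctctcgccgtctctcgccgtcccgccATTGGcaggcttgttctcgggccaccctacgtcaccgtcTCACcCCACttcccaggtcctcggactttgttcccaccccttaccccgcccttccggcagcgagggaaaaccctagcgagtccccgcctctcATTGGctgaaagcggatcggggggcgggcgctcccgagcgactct

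Some single genes known as targets of the sterol-sensing LXR receptors or for lipid droplets were higher at 48 h. They were not a list, and apart from Abca1 were chosen after their values were seen. They therefore cannot show how such genes moved as a group. Abca1 held 55, 52.9, 66.3, 63.9 and 79.9 CPM at 48 h, against 1.87, 3.02, 1.59, 2.38 and 2.29 CPM at 24 h (4.82 ± 0.15, adjusted p = 3.56e-10), where Abca1 encodes the transporter that passes cholesterol to lipoproteins. Every 48 h library was far above every 24 h library. Abcg1, a second exporter, was at 2.16 ± 0.18, Mylip, a ubiquitin ligase, at 1.89 ± 0.13, and the lipoprotein gene Apoe at 1.70 ± 0.24. The triglyceride synthesis enzyme Dgat2 was at 3.79 ± 0.08 and the lipid droplet protein Plin3 at 3.62 ± 0.11. The LXR genes themselves changed little or not detectably, Nr1h2 with 0.14 ± 0.05 (adjusted p = 0.0437, and 0.0523 to 0.125 without any one library other than the replicates 1 of 24 h and wild-type 48 h replicate 2) and Nr1h3 with 0.62 ± 0.54 (adjusted p = 0.351).

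Fatty acid synthesis genes also moved downward: of 18 tested, 0 rose, 13 fell and 5 did not pass (median −0.49). The acyl-CoA synthetases Acsl3 (−1.63 ± 0.09) and Acss2 (−1.19 ± 0.09) and the desaturase Fads2 (−0.93 ± 0.11) fell the most. Genes for the sphingolipids and galactolipids of myelin did not share this direction, with 9 of 20 higher, 4 lower and a median of 0.13. Ugt8a, the enzyme that makes galactosylceramide, averaged 3519 ± 197 CPM at 48 h, against 3602 ± 125 CPM at 24 h (−0.03 ± 0.06, adjusted p = 0.646). The ceramide kinase Cerk (2.66 ± 0.07), the sphingolipid activator precursor Psap (0.69 ± 0.05) and the ceramide synthase Cers2 (0.67 ± 0.05) rose, and the sphingomyelin synthases Sgms1 (−1.44 ± 0.06) and Sgms2 (−0.57 ± 0.07) and the sulfatide enzyme Gal3st1 (−0.37 ± 0.05) fell.

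Chaperones and folding enzymes of the ER fell together with the lipid genes. Of 23 tested (24 listed), 2 rose, 20 fell and 1 did not pass, with a median of −0.42 and a summed level of 4255, 4224, 4017, 4068 and 3903 CPM at 48 h, against 6231, 6106, 6286, 6106 and 6028 CPM at 24 h. Calr held 527, 525, 472, 494 and 423 CPM at 48 h, against 1058, 1039.5, 1070.3, 1022 and 1010 CPM at 24 h (−1.09 ± 0.05, adjusted p = 4.75e-10). Hspa5, which encodes the main ER chaperone BiP and was chosen after its values were seen, had 346, 329.9, 330.2, 337 and 297 CPM at 48 h, against 631, 643, 675, 626 and 600 CPM at 24 h (−0.95 ± 0.05, adjusted p = 4.22e-10). Neither gene showed overlap between the hours. Xbp1, a transcription factor of the unfolded protein response (−1.41 ± 0.05), and the disulfide isomerase Pdia5 (−1.47 ± 0.09) fell further, and the ubiquitin ligase Syvn1 (0.33 ± 0.07) and the co-chaperone Dnajb9 (0.24 ± 0.05) were the members that rose.

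Many ER chaperone promoters hold the ER stress response element, which is CCAAT, 9 bases of any kind and then CCACG. On either strand of the 250 bases before the start it was present in 9 of the 21 members with a RefSeq promoter (42.9%), against 0.13% of all symbols. Among members that rose, Syvn1 holds the element and Dnajb9 does not. Xbp1 and Pdia5, which fell further than the chaperones shown, lack it. The first 5 bases of the element are the CCAAT box counted above. The promoters of the 2 chaperones described, shown because both hold this element, are written 5′ to 3′ on the strand of the gene, with the fixed bases of the match in capitals. The match lies 65 to 47 bases before the start of Hspa5 (chr2:34771840-34772089, forward strand) and 162 to 144 bases before that of Calr (chr8:84846932-84847181, reverse strand), where it is read on the opposite strand of the gene.
Hspa5: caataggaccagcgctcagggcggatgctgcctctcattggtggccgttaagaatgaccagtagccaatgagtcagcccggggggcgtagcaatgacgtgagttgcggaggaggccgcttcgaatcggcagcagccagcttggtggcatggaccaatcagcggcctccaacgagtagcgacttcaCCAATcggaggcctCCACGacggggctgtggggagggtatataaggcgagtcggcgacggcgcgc
Calr: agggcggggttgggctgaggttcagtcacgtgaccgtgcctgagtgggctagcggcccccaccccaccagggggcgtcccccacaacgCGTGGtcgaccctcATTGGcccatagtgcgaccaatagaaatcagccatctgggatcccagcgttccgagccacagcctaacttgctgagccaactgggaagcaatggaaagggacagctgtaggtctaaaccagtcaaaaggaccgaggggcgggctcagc

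Lists tied to protein and energy production mostly shifted downward by smaller medians. All 37 tested cytosolic ribosomal protein genes fell, by small amounts, from −0.16 to −0.56 (Rplp1, −0.56 ± 0.06), with a median of −0.37. Of 37 nuclear-encoded respiratory chain genes 1 rose, 27 fell and 9 did not pass (median −0.21), led downward by Ndufa1 (−0.48 ± 0.08). Mitochondrially encoded transcripts leaned upward, with 5 of 13 higher and 0 lower, mt-Nd2 at 1.00 ± 0.30 (adjusted p = 0.0247). The 5 became 8 without Nrf2 -/- 24 h replicate 1 and 3 without wild-type 24 h replicate 1, wild-type 24 h replicate 2 or Nrf2 -/- 24 h replicate 3, where mt-Nd2 had adjusted p-values of 0.0539 to 0.0645. Ribosomal protein and mitochondrial genes have near-identical copies elsewhere in the genome, so their reads may be shared with those. Among genes of glycolysis and lactate export 7 of 29 rose and 18 fell (median −0.33). Pdk1, which holds pyruvate back from the mitochondria, fell the most (−1.87 ± 0.07), followed by the glycolytic enzymes Tpi1 (−0.97 ± 0.06) and Pfkl (−0.94 ± 0.06), while the enolase Eno2 (2.41 ± 0.13) and the lactate transporter Slc16a1 (1.00 ± 0.09) rose. ATF4 and CHOP targets split, 6 higher and 10 lower of 27, where 26.6% of all tested genes were higher and 28.3% lower. Ddit3, which encodes CHOP, was at 0.69 ± 0.07, Sesn2 at 0.93 ± 0.05, and the amino acid synthesis genes Asns at −0.74 ± 0.05 and Psat1 at −0.70 ± 0.04.

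Lysosomal genes rose: 22 of 34 in the lysosome and autophagy list were higher and 2 lower (median 0.44). The tetraspanin Cd63 (1.59 ± 0.11), the progranulin gene Grn (1.37 ± 0.10) and the protease Ctsl (1.15 ± 0.06) led, and the autophagy genes Map1lc3a (−0.20 ± 0.06) and Atg5 (−0.16 ± 0.05) were lower, Atg5 with an adjusted p of 0.0248, and 0.0526 to 0.144 without any one library other than Nrf2 -/- 24 h replicate 1 and the wild-type replicates 2. Peroxisome genes were divided, 9 higher and 10 lower of 28, near the shares of all tested genes, 26.6% and 28.3%. The β-oxidation enzyme Ehhadh was highest (2.24 ± 0.17) and Far1, which makes fatty alcohols for plasmalogens, lowest (−0.65 ± 0.05). Of 20 iron and heme genes 10 rose, 5 fell and 5 did not pass. The heme-making enzyme Fech (1.21 ± 0.05), the heme oxygenase Hmox1 (0.98 ± 0.09) and the ferritin light chain Ftl1 (0.63 ± 0.05) were higher, and the transferrin receptor Tfrc (−0.52 ± 0.05) was lower.

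Genes that p53 activates and genes of cell death rose as a group. Of 23 tested, 18 rose, 3 fell and 2 did not pass (median 0.68). Cdkn1a, the p21 inhibitor of cyclin-dependent kinases, had 76.8, 74.8, 71.3, 66.5 and 91.5 CPM at 48 h, against 19.8, 20.4, 20.7, 19.9 and 16.3 CPM at 24 h (1.97 ± 0.09, adjusted p = 2.74e-10), with no overlap. The death effector Bbc3, known as PUMA, was at 2.44 ± 0.09 and Gadd45b at 3.17 ± 0.15, whereas Sesn1 fell (−0.41 ± 0.07). Among cell-cycle brakes 10 of 19 rose, with Ccnd2 (3.10 ± 0.20), a cyclin known to drive division, Cdkn1a and Btg1 (1.76 ± 0.06) at the top, and 5 fell (3 without Nrf2 -/- 24 h replicate 2 or 3 or Nrf2 -/- 48 h replicate 1 or 2), Cdkn2a lowest (−0.65 ± 0.10). Changes of cell-cycle genes were small: 14 of 34 were higher, 1 lower (2 without wild-type 24 h replicate 1) and 19 not called, none by 2-fold. The replication genes Chaf1b (0.79 ± 0.13), Mcm3 (0.76 ± 0.10) and Tk1 (0.72 ± 0.14) were the highest and the spindle gene Nusap1 (−0.40 ± 0.10) the lowest. In the list of immediate early genes, 11 of 23 rose, Arc and Jun (1.96 ± 0.06) above the rest, and 4 fell, with Nr4a1 lowest (−1.19 ± 0.09).

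In the list of growth factor receptors and signals 19 of 27 were higher and 3 lower (median 0.88), with the neuregulin receptor Erbb3 at 2.75 ± 0.14, Pdgfc at 2.07 ± 0.18 and the FGF receptor Fgfr2 at 1.65 ± 0.08. Igf2 (−1.15 ± 0.12) and Igf1r (−0.65 ± 0.09) were lower. Erbb3 held 54.3, 44.3, 54.4, 50.9 and 76 CPM at 48 h, against 8.9, 9.02, 8.41, 8.08 and 7.15 CPM at 24 h, again without overlap. Among potassium channels, pumps and chloride transporters 12 of 24 rose and 5 fell. The inward rectifier Kcnj2 had 38.7, 35.8, 37.7, 39.6 and 44.7 CPM at 48 h, against 2.48, 2.38, 2.41, 2.44 and 2.09 CPM at 24 h (4.05 ± 0.08, adjusted p = 2.48e-14), and Kcna1 (2.46 ± 0.12) was higher as well. In the lists of glutamate receptors and of voltage-gated channels the counts were nearer to those of all tested genes, of which 26.6% were higher and 28.3% lower. Glutamate receptor genes were 7 higher and 5 lower of 21. The NMDA receptor subunit gene Grin2a was at 4.94 ± 0.23 and the partner subunit Grin1 at −1.13 ± 0.10. Voltage-gated sodium and calcium channel genes were 5 higher and 4 lower of 20, led by Cacna2d1 (2.68 ± 0.07).

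Guidance and matrix genes rose in larger number too, 16 of 26 semaphorin, netrin and ephrin genes against 7 that fell, and 18 of 31 matrix and adhesion genes against 6. The semaphorin receptor Nrp1 (2.53 ± 0.16) and the netrin receptor Unc5b (2.43 ± 0.07) were highest and Sema3c (−1.88 ± 0.08) lowest in the first list. Sparcl1 (2.73 ± 0.27) and the proteases Adamts1 (2.13 ± 0.06) and Adamts4 (2.00 ± 0.08) were highest in the second, and the collagen Col11a1 (−1.45 ± 0.05) lowest. The cytoskeleton was divided. Tubulin and microtubule genes counted 12 higher and 12 lower of 30: Tuba4a, Map7 (2.82 ± 0.06) and the oligodendrocyte protein Tppp (2.43 ± 0.09) rose and Tuba1a (−1.01 ± 0.08), Map2 (−1.05 ± 0.06) and Mapt (−1.05 ± 0.05) fell. Reads of tubulin paralogs can be hard to assign, and how the counting treated them is not stated. Actin remodelling genes counted 9 higher and 16 lower of 35, with the kinase Pak1 at 1.34 ± 0.05 and the profilin Pfn2 at −1.13 ± 0.06.

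Markers of astrocytes were higher at 48 h as a list. Of 18 tested (20 listed), 14 rose, 2 fell and 2 did not pass, with a median of 1.79. The summed level of all listed genes was 1275 to 1490.2 CPM at 48 h, against 901 to 974 CPM at 24 h, and the connexin gene Gjb6 had no count in any of the 10 libraries. Aldh1l1, a folate enzyme used as an astrocyte marker, averaged 10.6 ± 1.46 CPM at 48 h, against 1.32 ± 0.558 CPM at 24 h (2.99 ± 0.22), the water channel Aqp4 was at 2.55 ± 0.39, and the more abundant markers S100b (−0.39 ± 0.05) and Aldoc (−0.84 ± 0.06), which other glia also express, fell. Glul, the glutamine synthetase, had 684, 658, 670.4, 753 and 767 CPM at 48 h, against 206, 211, 189, 210.4 and 192 CPM at 24 h (1.81 ± 0.05). Gfap, the astrocyte filament protein, had 12.6, 8.9, 28.7, 20.8 and 31.5 CPM at 48 h, against 3.45, 7.49, 4.03, 6.82 and 3.46 CPM at 24 h (1.99 ± 0.42, adjusted p = 0.00452). Glul was chosen after its values were seen. It was the most abundant gene of the list, with means of 707 CPM at 48 h and 202 CPM at 24 h, and the rise of the summed level rests on it. Whether astrocytes among the cells account for any of the changes above was not tested.

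Markers of other cell types were measured as well. Microglia markers summed to 28.1 to 32.5 CPM at 48 h, against 26.1 to 30.8 CPM at 24 h, and 7 of 20, among them Aif1, Tmem119, Trem2 and C1qa, had no count. Neuron markers summed to 1624 to 1792 CPM at 48 h, against 2056 to 2282 CPM at 24 h, with 5 of 15 higher and 3 lower, and Map2 and Elavl3 as the most abundant. Slc17a6 had no count. Endothelial, mural and fibroblast markers summed to 352 to 439.6 CPM at 48 h, against 220.3 to 275 CPM at 24 h, nearly all of it from Pdgfra and Cspg4, which precursors express, and Cldn5, Cdh5, Vtn and Col3a1 had no count. Schwann cell and ependymal markers summed to 18.3 to 24.6 CPM at 48 h, against 15.8 to 22.8 CPM at 24 h.

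Stress and immune genes made no common move. Of all tested genes, for comparison, 26.6% were higher and 28.3% lower. NRF2 targets were 8 higher and 11 lower of 28 (median −0.11), from the epoxide hydrolase Ephx1 (1.58 ± 0.09) to the sugar enzyme Ugdh (−0.85 ± 0.08). Interferon-stimulated genes were 4 higher and 7 lower of 20 tested from 34 listed, with the class I gene H2-D1 at 0.80 ± 0.07 and the guanylate-binding protein Gbp3 at −0.85 ± 0.14. Their median was −0.22, but 0.24 without Nrf2 -/- 24 h replicate 2, the library with IFN-γ target transcripts. NF-κB and chemokine genes were 2 higher and 5 lower of 11 (3 lower without wild-type 48 h replicate 2 or Nrf2 -/- 48 h replicate 1), and complement genes 2 higher and 1 lower (2 without wild-type 24 h replicate 1) of 6. Genes reported in disease-associated oligodendrocytes were 16 higher and 5 lower of 28 (median 0.66). Gadd45b and the annexin Anxa5 (2.81 ± 0.08) rose, and S100a6, the kinase Sgk1 (−1.31 ± 0.07) and the serpin Serpina3n (−1.06 ± 0.05), a marker of that state, fell.

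The change over this day was also compared between genotypes, Nrf2 -/- against wild type. In edgeR, 0 genes passed the test of that difference, 626 of 14858 had an unadjusted p below 0.05, and DESeq2 also gave 0. The result of 0 genes did not hold without wild-type 48 h replicate 1, a fit that leaves a single wild-type library at 48 h. Taken separately in the same fit, 6282 genes changed in Nrf2 -/- cells (42.3%) and 5694 in wild-type cells (38.3%), with 3 and 2 libraries an hour. The difference in log2 fold, Nrf2 -/- minus wild type, was 0.12 (95% interval −0.16 to 0.40) for Mbp, 0.22 (95% interval −0.03 to 0.46) for Mobp and −0.02 (95% interval −0.38 to 0.33) for Mal. For Hmgcs1 it was 0.32 (95% interval 0.02 to 0.62, adjusted p = 1.0), for Hspa5 0.01 (95% interval −0.20 to 0.22), for Abca1 −0.18 (95% interval −0.91 to 0.54) and for Cdkn1a −0.24 (95% interval −0.59 to 0.11). The list medians in Nrf2 -/- and in wild-type cells were 2.07 and 2.07 for mature markers, −0.96 and −1.28 for cholesterol synthesis and 0.65 and 0.71 for p53 genes. Single genes could thus differ between genotypes by amounts within these intervals.

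Under IFN-γ the same 24 hours looked different for many of these genes. The untreated change minus the change with IFN-γ differed from 0 in 7058 of 16460 genes (42.9%), higher in 3442 (20.9%) and lower in 3616 (22%), in a fit of all 50 libraries, with a median difference of 0.01. The folds in this and the next paragraphs come from that fit. With IFN-γ 7330 genes changed between the hours (44.5%), 3826 higher at 48 h (23.2%) and 3504 lower (21.3%). Cholesterol synthesis genes fell in untreated cells with a median of −1.10, against 0.39 with IFN-γ, where 18 of 24 rose and 0 fell. The difference was below 0 in 22 of 24 members and above it in 0. For Hmgcs1 the untreated change was −1.10 ± 0.07, against 0.51 ± 0.07 with IFN-γ, a difference of −1.61 ± 0.10 (adjusted p = 1.01e-15). The IFN-γ libraries held 3419, 3280.1, 3547, 3232 and 3510.4 CPM at 48 h and 2224, 2293, 2865, 2193 and 2517 CPM at 24 h. For this gene untreated and IFN-γ libraries overlapped at 48 h, and untreated libraries lay above all IFN-γ libraries at 24 h. The list totalled 15098, 15017, 12534, 12143 and 10838 CPM untreated, against 11278, 11037, 11386, 11255 and 11216 CPM with IFN-γ, at 48 h. At 24 h it totalled 26741, 24086, 25942, 24683 and 24354 CPM untreated, against 7759, 7467, 9189, 7679 and 8371 CPM with IFN-γ.

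**Figure D3:**
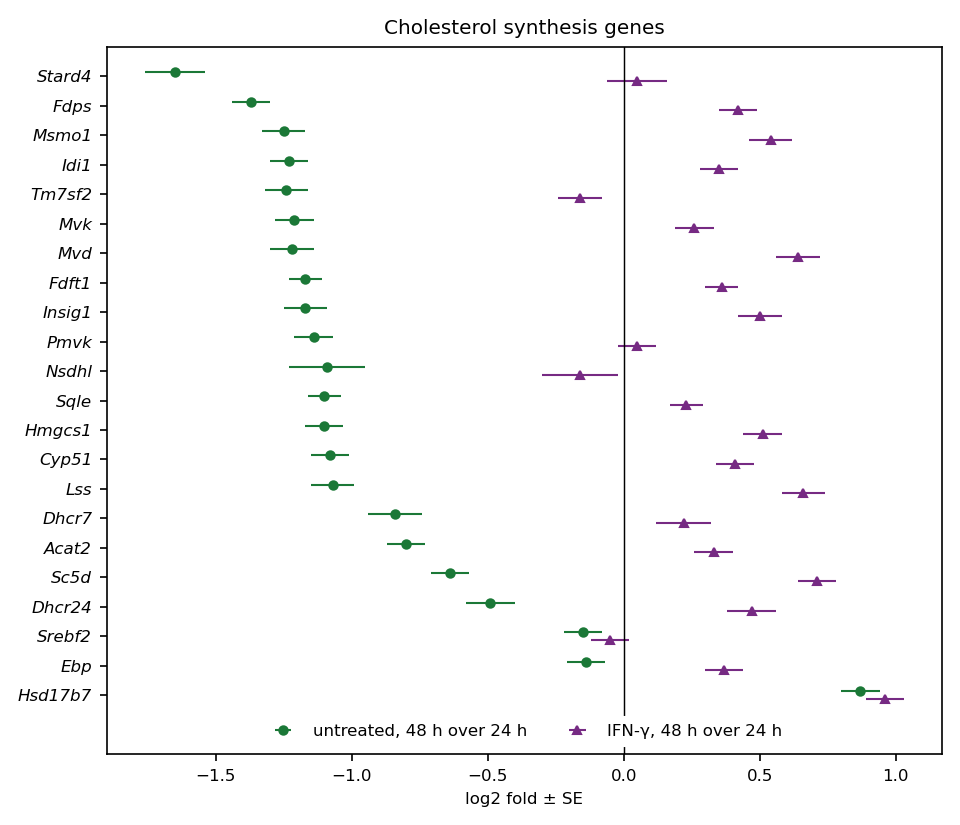
Log2 fold of 48 h over 24 h ± SE (horizontal axis) of 22 of the 24 tested cholesterol synthesis genes in untreated cells (green circles) and in IFN-γ cells (purple triangles), from the fit of all 50 libraries. In untreated cells the median of all 24 is −1.10, against 0.39 with IFN-γ.

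Myelin protein genes had a median change of 0.55 in untreated cells and 1.00 with IFN-γ, and the difference was above 0 in 8 and below it in 15 of 34 genes. Mbp held 2408, 2092, 2301, 2347 and 2889 CPM at 48 h and 298, 376, 458, 541 and 371 CPM at 24 h with IFN-γ, and its fold was smaller untreated (1.83 ± 0.13) than with IFN-γ (2.57 ± 0.13, difference −0.74 ± 0.18). For Mobp no difference was detected (3.65 ± 0.20 untreated, 3.71 ± 0.21 with IFN-γ), with a difference of −0.06 ± 0.26 and an adjusted p of 0.894. For Mog the untreated change was −0.22 ± 0.12, against 2.28 ± 0.13 with IFN-γ (difference −2.50 ± 0.17), from levels with IFN-γ of 39.2, 32.7, 37.3, 45.3 and 37.9 CPM at 48 h and 6.06, 7.07, 9.48, 9.16 and 8.29 CPM at 24 h. Mal rose more in untreated cells, by 5.37 ± 0.16 against 2.68 ± 0.16 (difference 2.69 ± 0.23).

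Among called genes that passed the filter on low counts in the 10 untreated libraries and had a mean of at least 5 CPM over the libraries compared, the largest differences above 0 were in Car2 (5.63 ± 0.21), Phlda1 (4.27 ± 0.33), Abca1 (4.01 ± 0.26), the receptor kinase Kit (3.71 ± 0.37) and the sortilin relative Sorcs2 (3.54 ± 0.26). Car2, given above for untreated cells, held 5.9, 6.4, 7.43, 9.15 and 8.33 CPM at 48 h and 5.62, 8.36, 6.94, 9.31 and 7.96 CPM at 24 h with IFN-γ, so IFN-γ cells were above untreated ones at 24 h and below them at 48 h. Among those furthest below 0 were Elmod1 (−3.30 ± 0.19), the tetraspanin Tspan4 (−3.10 ± 0.16), S100a3 (−2.54 ± 0.11) and the dopa decarboxylase gene Ddc (−2.53 ± 0.20). Elmod1 held 18.1, 19.8, 15.5, 16.8 and 15.5 CPM at 48 h, against 20, 20.4, 22.7, 26.5 and 22.3 CPM at 24 h in untreated cells, and 7.38, 7.79, 7.77, 9.18 and 9.55 CPM at 48 h and 1.01, 1.14, 1.01, 1.39 and 1.13 CPM at 24 h with IFN-γ. Cell-cycle genes had a difference above 0 in 33 of 34 and below 0 in 0, with medians of 0.14 untreated and −0.72 with IFN-γ, where 34 of them fell. Their summed level was still higher with IFN-γ at both hours. It was 3655 to 4564 CPM at 24 h, against 1285 to 1548 CPM untreated, and 2191 to 2628 CPM at 48 h, against 1305 to 1602 CPM. For p53 genes the counts were 19 above and 2 below 0 of 23, with medians of 0.71 untreated and −0.02 with IFN-γ. For ER chaperones they were 1 above and 18 below 0 of 23, with medians of −0.41 and −0.11.

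**Figure D4:**
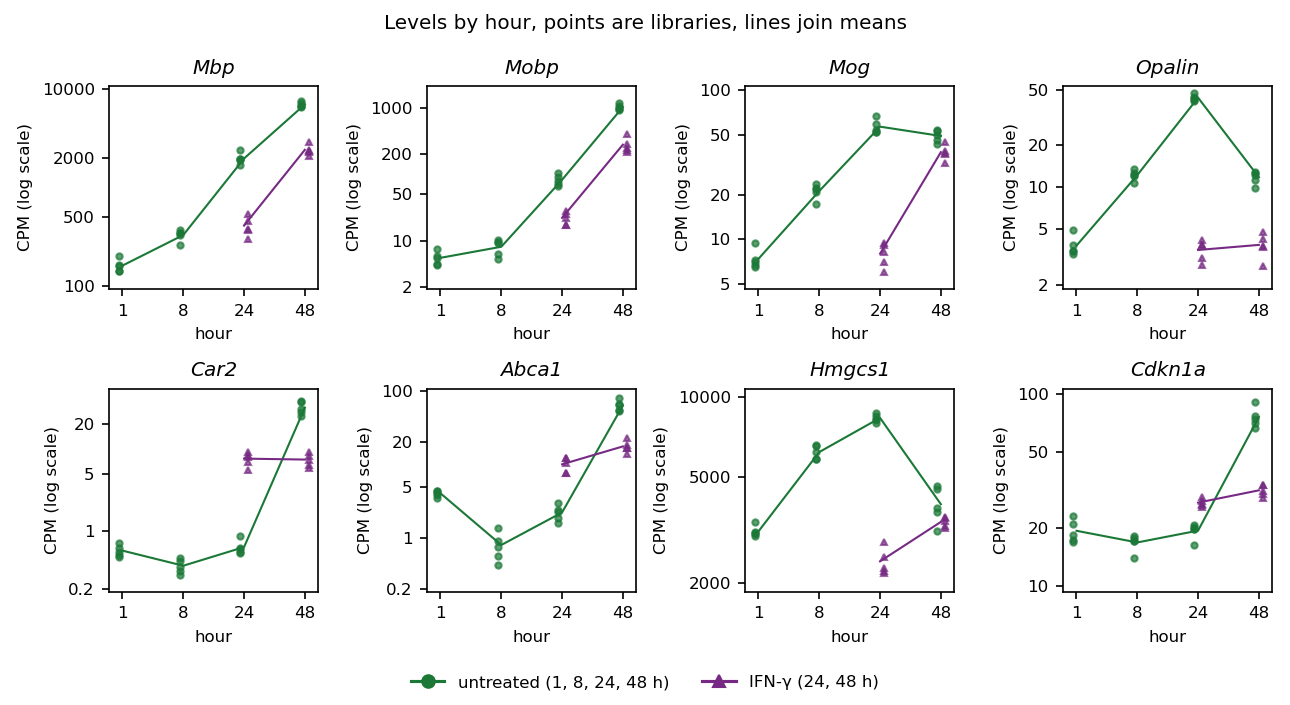
Level in CPM (vertical axes, log scale) of 8 genes against hour (1, 8, 24 and 48 h, evenly spaced) in untreated libraries (green circles) and at 24 and 48 h in IFN-γ libraries (purple triangles); points are libraries and lines join means. Car2 reaches 31.7 CPM in untreated cells at 48 h, against 0.647 CPM at 24 h, while IFN-γ cells average 7.44 and 7.64 CPM at these hours.

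Finally the late change, 24 to 48 h, was set against the early one, 8 to 24 h, within untreated cells. The changes share the 24 h libraries and span 24 and 16 h, so only their difference was tested. It passed in 6659 of 16460 genes (40.5%), 3281 higher (19.9%) and 3378 lower (20.5%), with a median of 0.04. One 8 h library, Nrf2 -/- replicate 2, carries labels that disagree on its genotype, and without it 6435 genes passed. Cholesterol synthesis had a median of −1.10 late and 0.18 early, the difference being below 0 in 22 of 24 genes and above it in 1. Precursor markers had a median of 0.10 late and −1.11 early, with 15 of 24 differences above 0 and 4 below. Growth factor receptors and signals had 0.93 late and −0.61 early (19 above, 2 below of 27). Mature markers had 1.99 late and 1.18 early (11 above, 13 below of 39).

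Single genes turned at 24 h. Opalin stood at 12.6, 10.7, 12.1, 12.3 and 13.5 CPM at 8 h and peaked at 24 h, so that its late change was −1.92 ± 0.10 and its early change 1.85 ± 0.10 (difference −3.77 ± 0.16). Tspan4 (−4.55 ± 0.19), Elmod1 (−4.06 ± 0.21) and the heparan sulfate sulfotransferase Hs6st1 (−3.32 ± 0.12) shared this shape, with means that were higher at 24 h than at 8 h or 48 h. Car2 (4.77 ± 0.39), Phlda1 (4.71 ± 0.48), Megf6 (4.62 ± 0.34), the sialyltransferase St6gal1 (4.43 ± 0.25) and Tmem268 (4.35 ± 0.23) had the largest differences above 0 among called genes with a mean of at least 5 CPM over the libraries compared. Pdgfra, at 521, 631, 528, 503 and 463 CPM at 8 h, fell early (−1.34 ± 0.10) and rose late (0.77 ± 0.10), a difference of 2.11 ± 0.18 (adjusted p = 1.29e-11).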

How the data were processed

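RNA-seq measured all transcripts of the 10 untreated libraries and of the libraries they were set against. Per the submitters' processing notes, STAR, featureCounts, kallisto and edgeR were used, and the deposited gene table holds whole read counts per gene, not normalized. A second deposited table holds estimated counts per transcript, in kallisto's format per the file headers, used here only as an alternative after summing per gene and rounding to whole numbers. Genome build, gene annotation, strand setting and tool versions were not stated by any source used here, so reads of a gene and of an antisense partner may not be told apart. Gene symbols are from GENCODE M21, which matched 38872 of 39056 gene IDs.

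Counts were tested with edgeR 4.0.16 in R 4.3.3 (TMM scaling, filterByExpr with a minimum count of 10 and a total of 15, robust quasi-likelihood F-test, Benjamini-Hochberg adjustment over all tested genes, threshold 0.05). The 48 h against 24 h comparison was fitted on the 10 untreated libraries with genotype as a covariate, the genotype difference on their 4 group means, and the comparisons with IFN-γ and with the early interval on all 50 libraries with 1 mean per group. Printed CPM use the TMM factors of all 50 libraries. DESeq2 1.42.0, other scalings, filters, covariates and subsets, and each library left out in turn, were tried as alternatives. The test was checked on simulated counts with known changes.

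Genes are named by rule: a fixed set of lineage genes, the 12 highest and 12 lowest folds among called genes whose hours do not overlap and whose higher mean is at least 5 CPM, the 3 highest and 3 lowest called members of each list, and the 5 highest and 5 lowest in each difference test. A few genes that the rule takes in are not reported here. The genes, lists and comparisons were chosen with earlier results of these data known. RefSeq promoters are from GRCm38.p6. Intervals cover the fitted spread between libraries only.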

Additional observations from a re-analysis of the deposited data

Results flagged for a closer look

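In 112 groups of 5 untreated libraries checked, 11 held a library apart from the other 4. Most groups were single genes whose values are printed here, Gbp2 and Igtp among them, and all share the same 10 libraries. For that reason the count cannot be set against a chance rate. Nrf2 -/- 24 h replicate 2 had 40.6 CPM of Gbp2, where the other 4 had 0 to 0.161, and 12.1 CPM of Igtp, where they had 0.0332 to 0.323; both are IFN-γ targets, chosen after their values were seen. At 48 h, Nrf2 -/- replicate 1 had 1.12 CPM of Gbp2, where the others had 0.133 to 0.284. Neither gene was called between the hours (Gbp2 had a log2 fold of −4.08 and an adjusted p of 0.141). Wild-type 24 h replicate 2 was at −42.6 on the second principal component (others 5.9 to 15.1), with 16.3 CPM of Cdkn1a (others 19.8 to 20.7) and 2.09 CPM of Kcnj2 (others 2.38 to 2.48). Nrf2 -/- 48 h replicate 3 was lowest in Mag, at 2648 CPM (others 3077 to 3170.4), and in Hsd17b7, at 866 CPM (others 958 to 975). Single values were Phlda1 at 31.8 CPM in wild-type 48 h replicate 2 (others 12.4 to 17.6), Stard4 at 502 CPM in Nrf2 -/- 24 h replicate 1 (others 343 to 381) and Car2 at 0.882 CPM in wild-type 24 h replicate 1 (others 0.551 to 0.632).

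Among called genes that passed the filter on low counts in the 10 untreated libraries and had a mean of at least 5 CPM over the libraries compared, the untreated change differed from the change with IFN-γ most in Car2 (log2 difference 5.63), Phlda1 (4.27), Abca1 (4.01), Kit (3.71) and Sorcs2 (3.54) above 0, and, among others, in Elmod1 (−3.30), Tspan4 (−3.10), S100a3 (−2.54) and Ddc (−2.53) below it. Under the same limits, the late untreated change differed from the early one most in Car2 (4.77), Phlda1 (4.71), Megf6 (4.62), St6gal1 (4.43) and Tmem268 (4.35) above 0, and, among others, in Tspan4 (−4.55), Elmod1 (−4.06), Opalin (−3.77) and Hs6st1 (−3.32) below it. These are tests of the difference itself, and each passed under all alternatives run.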

How the results depend on the processing

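The count of 8159 genes changed between the hours was 8111 with RLE scaling, 8106 with upper-quartile scaling, 8165 in DESeq2, 8157 with no filter on low counts, 7326 with a filter of 1 CPM in 5 libraries, 8731 in the fit of all 50 libraries, 8300 without the genotype term, 7973 with Xist as a term, 6731 in Nrf2 -/- libraries alone and 8801 from transcript counts. In wild-type libraries alone, with 2 an hour, it was 3996 (2129 higher, 1867 lower); the cause was not tested. Leaving out each library gave 7498 to 7958 (3668 to 4035 higher, 3720 to 4136 lower). No scaling moved the share of higher calls by over 10 percentage points or the median of all genes by over 0.1. The genotype difference was 0 genes under every alternative run except without wild-type 48 h replicate 1, so leaving out libraries gave 0 to 3 genes, 0 of them higher and 0 to 3 lower. The difference from the IFN-γ change passed in 6220 to 7426 genes over the libraries left out, 3033 to 3737 higher and 3187 to 3697 lower, and the difference from the early change in 5840 to 6708, 2665 to 3336 higher and 2943 to 3414 lower.

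Of the lists whose median was further than 0.2 from 0, 4 changed sign. Among lists within 0.2 of 0, 6 did so as rounded: ATF4 and CHOP targets, cell cycle, neuron markers, peroxisome, sex-linked transcripts and voltage-gated channels. Interferon-stimulated genes went to 0.09 in wild-type libraries alone, to 0.24 without Nrf2 -/- 24 h replicate 2 and to 0.21 without both 24 h libraries that stood apart, and leaving out single libraries gave −0.50 to 0.24. The 50-library fit gave −0.20 over its 33 tested members and 0.07 over the 20 of the 10-library fit. NF-κB and chemokine genes went to 0.03 over the 16 members tested in the 50-library fit (−0.40 there over the 11 of the 10-library fit) and to 0.00 with transcript counts. Complement genes went to −0.23 with the 1 CPM filter and −0.35 in Nrf2 -/- libraries alone, and with single libraries left out ranged between −0.30 and 0.34 (−0.25, −0.21, −0.13 and −0.30 without 1 of the wild-type libraries). Schwann cell and ependymal markers went to −0.13 with the 1 CPM filter. The cause was not tested. No named gene that was run through the alternatives changed direction where it was called, in the main fit or in the alternative. Hmgcs1, Srebf2, Ebp, Hspa5, Glul, Gbp2 and Igtp were not run through them. No paired analysis was possible because the labels number no replicates, and the numbers used here are in accession order. Where a wild-type library is left out, the one that remains at that hour is assumed to vary like the other groups. Leaving out both 24 h libraries that stood apart was an alternative chosen after seeing the data. At 34385467 to 37321918 reads a library, low genes rest on few reads: Il12rb1 had 13 in all at 24 h, and depth limits the precision of its fold.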

Other observations

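Genes best known from neurons, which oligodendrocytes also express in part, were divided as well. Grik2, a kainate receptor subunit, averaged 111 ± 7.95 CPM at 48 h, against 46.3 ± 3.67 CPM at 24 h, while another, Grik3, averaged 290.4 ± 18.6 CPM at 48 h, against 473 ± 14.2 CPM at 24 h (SD, n = 5 each), and the hours did not overlap for either. The metabotropic receptor Grm5 (1.20 ± 0.08) and the calcium channel subunit Cacnb4 (2.13 ± 0.05) were higher, and Cacna1b (−0.55 ± 0.07), Shisa9 (−1.82 ± 0.15) and the vesicle protein Syp (−0.94 ± 0.08) lower, as log2 folds ± SE. The RNA-binding protein Elavl3 averaged 735 ± 26.3 CPM at 48 h, against 496 ± 16.9 CPM at 24 h. Between guidance genes, the ephrin Efnb3 averaged 90.2 ± 8.79 CPM at 48 h, against 20.9 ± 3.59 CPM at 24 h, and the slit receptor Robo2 15 ± 2.49 CPM at 48 h, against 38.5 ± 4.73 CPM at 24 h, both without overlap. Of the actin genes, the bundling protein Fscn1 (0.82 ± 0.06) and the severing protein Gsn (0.83 ± 0.05) were higher, and the kinase Pak3 (−0.94 ± 0.07) and cytoplasmic actin Actg1 (−0.69 ± 0.06) lower.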
